A study of Mus musculus with 8 samples.

Results

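The E2F factors and the pocket proteins of the RB family form the switch that lets a cell copy its DNA. E2F factors are DNA-binding proteins that control genes of DNA synthesis and mitosis, and the pocket proteins bind most of them and hold those genes silent until cyclin-dependent kinases (CDKs) phosphorylate the pocket protein. E2f1, E2f2 and E2f3 are classed as activators that bind mainly Rb1, E2f4 and E2f5 as repressors that act with Rbl1 (p107) and Rbl2 (p130), and E2f7 and E2f8 as atypical repressors that bind DNA without a DP partner and without a pocket protein. In the epidermis, basal keratinocytes divide and suprabasal keratinocytes leave the cell cycle as they differentiate. These 10 genes, taken by their symbols from the 41457 genes of the deposited tables, were followed in cultured mouse keratinocytes (KCs).

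The KCs came from tail skin of adult wild-type C57BL/6 mice and were kept in vitro without treatment, in serum-free medium with little calcium, for 1 week (4 samples) or 3 weeks (4 samples). The labels describe 4 independent experiments, but do not say how many mice gave the cells of a sample, and cells were split when nearly confluent, so that time in culture cannot be told apart from passage and cell density. The question was how gene expression in KCs changes upon prolonged culture. All 10 genes had enough reads to be tested among 12590 genes. Total reads on exons per sample were 13896807 to 20026084 at 1 week and 14096649 to 18127283 at 3 weeks. Keratinocyte markers had a summed level over 9 genes of 13380.5 to 16036.9 RPKM (exon reads scaled to exon length and sequencing depth) at 1 week and 8712 to 9738.5 RPKM at 3 weeks. Values of single markers in single samples ranged from 0.591 to 7628.3 RPKM, and Krt5 and Itga6 were lower at 3 weeks. Of other cell types, the summed RPKM was 2.70 to 4.49 and then 2.30 to 4.65 for 6 fibroblast markers, 3.25 to 20.8 and then 1.28 to 5.58 for 5 melanocyte markers (Pmel was lower), 0.663 to 1.72 and then 0.824 to 2.03 for 5 immune cell markers (Cd207 was at 0), and 0.389 to 0.548 and then 0.252 to 0.406 for 3 endothelial markers. The part of these cells in the values given here was not tested.

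At 3 weeks, 3 of the 10 genes were lower by edgeR's quasi-likelihood test (Rbl1, E2f7 and E2f8; Benjamini-Hochberg adjusted p under 0.05 over all tested genes), beside 17.0% of all tested genes. E2f3 alone was higher, beside 15.7% of all tested genes, so that 4 of 10 genes passed in either direction beside 32.8% of all tested genes, and 6 did not. The median log2 fold change (3 weeks over 1 week) was -0.07 over the 10 genes and 0.03 over all tested genes. In these bulk samples, fewer cells of a kind and less RNA per cell cannot be told apart.

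Promoter sequence is shown for the genes that passed the test and, for contrast, for Rbl2, the close relative of Rbl1, and E2f2. It was read from RefSeq windows on GRCm38.p6 that reach from 250 bases before to 50 bases after a transcription start. Windows were given for 7 of the 10 genes (9 windows), and not for E2f4, E2f5 and Rb1. Searched on both strands were the E2F word TTCCCGC, its forms with other middle letters TTCGCGC as well as TTGCCGC and also the form TTGGCGC, and the CHR word TTTGAA, which many G2/M promoters carry. E2F words can overlap each other where a site reads alike on both strands. An E2F word lay in 9.57% of the 32851 windows of all genes and in 5 of the 9 windows here, and TTTGAA in 17.9% of all windows and in 4 of the 9. Capitals mark the matches, which are matches of letters and not measured binding. Each line gives the 130 bases before the start, 5′ to 3′ on the strand of the gene, and for E2f2 only 30 bases that begin 21 bases after it.
Rbl1, chr2:157204535-157204664, minus strand: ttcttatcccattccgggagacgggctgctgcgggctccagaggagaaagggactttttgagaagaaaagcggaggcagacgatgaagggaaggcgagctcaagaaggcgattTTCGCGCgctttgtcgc
E2f8, chr7:48881597-48881726, minus strand: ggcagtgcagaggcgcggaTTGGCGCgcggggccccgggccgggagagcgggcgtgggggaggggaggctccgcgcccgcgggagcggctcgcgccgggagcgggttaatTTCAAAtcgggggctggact
E2f7, chr10:110745309-110745438, plus strand: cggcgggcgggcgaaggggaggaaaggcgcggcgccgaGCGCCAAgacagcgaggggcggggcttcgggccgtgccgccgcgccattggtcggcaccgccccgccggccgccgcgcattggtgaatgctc
E2f3, chr13:29986064-29986193, minus strand: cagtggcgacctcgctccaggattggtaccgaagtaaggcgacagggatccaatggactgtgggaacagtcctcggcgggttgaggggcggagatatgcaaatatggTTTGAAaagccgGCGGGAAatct
Rbl2, chr8:91069927-91070056, plus strand: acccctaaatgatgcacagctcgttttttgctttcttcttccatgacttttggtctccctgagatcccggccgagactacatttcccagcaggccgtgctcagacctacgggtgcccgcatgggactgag
E2f2, chr4:136172294-136172323, plus strand: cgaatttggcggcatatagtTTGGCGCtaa
In Rbl1, the word TTCGCGC began 17 bases before the start. E2f8 held TTGGCGC 111 bases before the start and TTCAAA, the reverse of the CHR word, 20 bases before it. E2f7 held GCGCCAA 92 bases before the start, and farther out TTCCCGC at 223 and GCGGGAA at 198 bases. E2f3 was called higher only close to the threshold, while the other 3 were lower. In E2f3, GCGGGAA lay 11 bases and TTTGAA 23 bases before the start, and TTGGCGC 19 bases after it. The E2f2 match lay 41 bases after the start shown, which itself lay outside the deposited gene, at -120 bases from its first base. A further window of E2f2, with a start 8388 bases inside the deposited gene, held TTTGAA 31 bases before that start. Rbl2 held no E2F word in the window and TTCAAA 201 bases before its start. The E2f1 window began its transcript 466 bases inside the deposited gene, held neither word, and is not shown.

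Rbl1 (ENSMUSG00000027641, chr2:157145893-157204534 on GRCm38, minus strand, 28 exons) encodes p107, the pocket protein that accumulates in cycling cells. In replicates 1 to 4 its level was 7.42, 6.85, 8.46 and 11.1 RPKM at 1 week and 2.13, 1.94, 1.98 and 1.59 RPKM at 3 weeks. Every sample at 3 weeks lay below every sample at 1 week, as for 26.2% of all tested genes. Mean levels were 8.47 ± 1.90 and 1.91 ± 0.229 RPKM (SD, n = 4 each), 4.43-fold lower at 3 weeks, and the exact permutation test of the means (two-sided) gave p = 0.0286, the smallest that 70 arrangements allow. The log2 fold change from the counts was -1.98 (SE 0.19), with an adjusted p of 0.0003 by edgeR's quasi-likelihood test. Behind it stood 728 to 1178 exon reads per sample at 1 week and 140 to 238 at 3 weeks, all of them unique to the gene.

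The other pocket protein genes did not pass the test. Rb1 (ENSMUSG00000022105, chr14:73183673-73325822, minus strand, 37 exons) encodes the retinoblastoma protein, the main partner of the activator E2Fs. Its level was 5.33, 5.83, 6.54 and 6.32 RPKM at 1 week and 6.78, 6.59, 5.83 and 8.06 RPKM at 3 weeks, with overlapping groups. The log2 fold change of Rb1 was 0.34 (SE 0.12) and missed the threshold, with an adjusted p of 0.0557 by edgeR's quasi-likelihood test. On the scale of that test, CPM (exon reads scaled to library size) with TMM factors, which correct library sizes for composition, Rb1 was at 32.1, 33.8, 38.2 and 37.4 at 1 week and at 43.6, 42.0, 42.6 and 50.9 at 3 weeks, which do not overlap (16.4% of all tested genes were higher in this way). Only 51.0% of the exon reads of Rb1 were unique to it, and from unique reads alone the log2 fold change was 0.26, with an adjusted p of 0.191 by the same edgeR test. Rcbtb2 and Lpar6 overlap Rb1 on the other strand, and the use of strand in counting is not given in the sources used here. When reads in introns were added, the log2 fold change of Rb1 was 0.10. Of the 606 intron reads of Rb1 over all samples, only 66 were unique.

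Rbl2 (ENSMUSG00000031666, chr8:91070057-91123844, plus strand, 40 exons) encodes p130, the pocket protein that joins E2f4 or E2f5 and the MuvB core in the DREAM complex of resting cells. At 1 week its level was 1.37, 1.37, 2.13 and 1.98 RPKM, and at 3 weeks 1.97, 1.90, 1.37 and 2.49 RPKM. The groups overlapped, with replicate 4 at 3 weeks above every 1 week sample, and the log2 fold change of 0.33 (SE 0.21) had an adjusted p of 0.256 by edgeR's quasi-likelihood test. Without that sample the log2 fold change of Rbl2 was 0.21. Of the exon reads of Rbl2, 61.3% were unique, and the gene overlaps Aktip on the other strand.

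The makeup of the pocket protein RNA changed, as shares of the summed RPKM of the 3 genes show. Rbl1 made up 52.6%, 48.8%, 49.4% and 57.3% of it in the 1 week samples and 19.6%, 18.6%, 21.6% and 13.1% in the 3 week samples. Rb1 made up 37.7%, 41.5%, 38.2% and 32.5% at 1 week and 62.3%, 63.2%, 63.5% and 66.4% at 3 weeks. Rbl2 went from 10.5% ± 1.29 to 17.9% ± 2.31 (SD, n = 4 each). For all 3 genes the 2 groups did not overlap, also when the shares were made from unique reads, where Rbl1 went from a mean of 66.8% to 29.6% and Rb1 from 25.0% to 52.2%. The shares are of a whole, so that the fall of Rbl1 alone raises the other shares. Within each sample, the RPKM of Rbl1 was 5.42, 5.00, 3.97 and 5.63 times that of Rbl2 at 1 week and 1.08, 1.02, 1.45 and 0.637 times at 3 weeks. All exon reads of Rbl1 but only 61.3% of those of Rbl2 were unique. From unique reads, Rbl1 held 32.1%, 29.8%, 34.5% and 22.1% at 3 weeks, above Rbl2 with 17.7%, 17.3%, 15.6% and 21.9%. Summed over the 3 genes, the level was 16.2 ± 2.61 RPKM at 1 week and 10.7 ± 1.22 RPKM at 3 weeks, with no overlap. Of all tested genes, 26.2% lay lower in RPKM in this way.

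**Figure D1:**
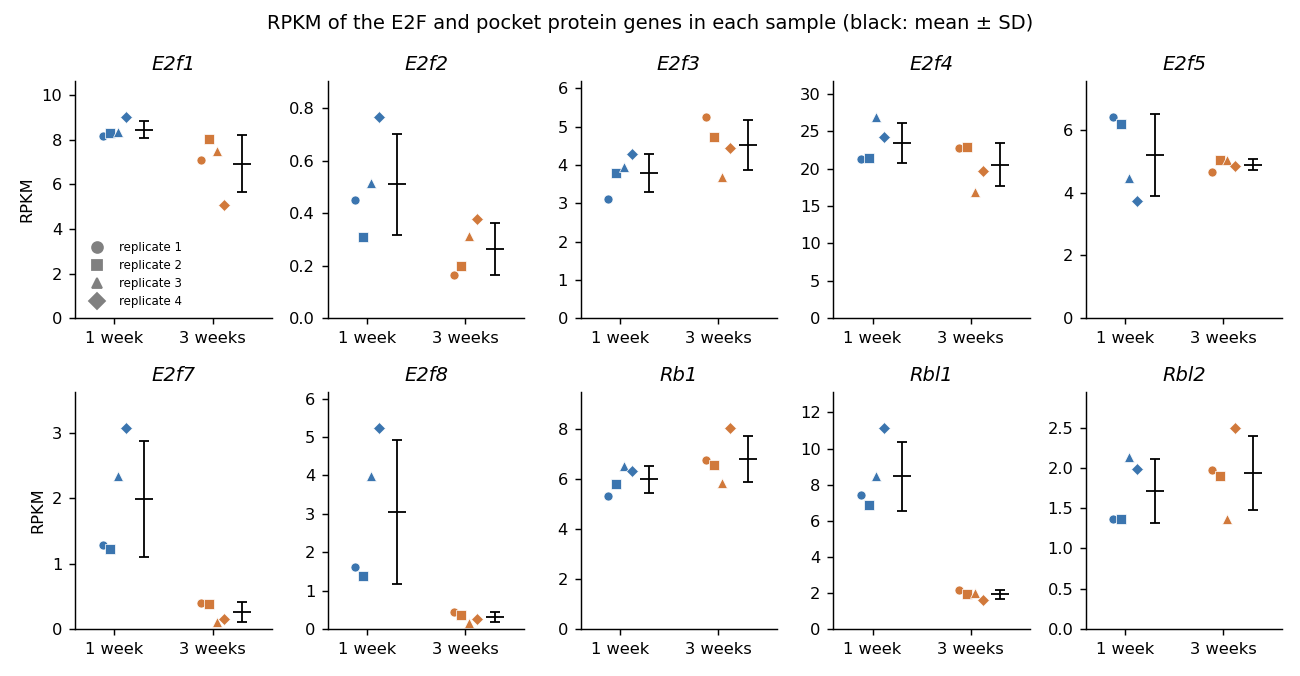
Level of each E2F and pocket protein gene in RPKM (vertical axes, each from 0) in the 1 week (blue) and 3 week (orange) samples. Symbols mark the replicate number and black bars the mean ± SD of 4 samples. Rbl1, E2f7 and E2f8 lie lower in all 3 week samples, E2f1 does so by a narrow margin, and the others overlap. Of all tested genes, 26.2% lie lower in RPKM in this way. In CPM after TMM scaling (not drawn), E2f1 overlaps, and E2f3 and Rb1 lie higher in all 3 week samples, as do 16.4% of all tested genes.

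The plot of RPKM by sample shows that the steepest falls were in the atypical repressors. E2f8 (ENSMUSG00000046179, chr7:48866429-48881596, minus strand, 18 exons) was at 1.61, 1.37, 3.99 and 5.24 RPKM in replicates 1 to 4 at 1 week and at 0.444, 0.369, 0.145 and 0.263 RPKM at 3 weeks. The groups did not overlap, and at 1 week replicates 3 and 4 lay well above replicates 1 and 2. Means of 3.05 ± 1.88 and 0.305 ± 0.130 RPKM (SD, n = 4 each) were 10.01-fold apart, with an exact permutation p of 0.0286. For E2f8 the log2 fold change was -3.16 (SE 0.51), with an adjusted p of 0.0021 by edgeR's quasi-likelihood test. Exon reads numbered 154 to 503 at 1 week and 13 to 45 at 3 weeks, so that the 3 week level rests on few reads.

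E2f7 (ENSMUSG00000020185, chr10:110745439-110787384, plus strand, 30 exons), which can pair with E2f8, moved in the same way. Levels of E2f7 were 1.29, 1.23, 2.34 and 3.08 RPKM at 1 week and 0.399, 0.378, 0.108 and 0.151 RPKM at 3 weeks. Again the groups did not overlap, replicates 3 and 4 were the highest at 1 week, and 16 to 67 exon reads remained at 3 weeks. The mean was 7.66-fold lower at 3 weeks (exact permutation p = 0.0286), and the log2 fold change was -2.78 (SE 0.47), with an adjusted p of 0.0024 by edgeR's quasi-likelihood test. Of the exon reads of E2f7 60.3% and of E2f8 86.2% were unique, and from unique reads alone the log2 fold changes were -2.72 and -3.11. On the scale of log2(RPKM + 1), where the added 1 exceeds the 3 week levels, they shrank to -1.21 for E2f7 and -1.52 for E2f8 and still passed the limma test.

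E2f1, E2f2 and E2f3, the activators, did not move together. E2f1 (ENSMUSG00000027490, chr2:154559407-154569892, minus strand, 9 exons), which drives entry into S phase, was at 8.14, 8.28, 8.33 and 9.005 RPKM at 1 week and at 7.09, 8.02, 7.49 and 5.09 RPKM at 3 weeks. The groups did not overlap in RPKM (exact permutation p = 0.0286), but the gap between 8.02 and 8.14 RPKM was small. After TMM scaling they did overlap, at 25.2 to 28.0 and 16.9 to 28.8 CPM, and the log2 fold change of E2f1 was -0.11 (SE 0.17) with an adjusted p of 0.648 by edgeR's quasi-likelihood test. The scalings differ for all genes: the median log2 change over all tested genes was 0.03 with TMM and -0.16 on log2(RPKM + 0.1). In mean RPKM, E2f1 was 1.22-fold and E2f8 10.01-fold lower at 3 weeks. E2f1 was 5.05, 6.03, 2.09 and 1.72 times as abundant as E2f8 in the 1 week samples and 16.0, 21.8, 51.5 and 19.4 times in the 3 week samples.

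E2f3 (ENSMUSG00000016477, chr13:29906575-29986063, minus strand, 12 exons) was the gene that rose. In CPM after TMM scaling it was at 17.0, 19.8, 20.9 and 22.9 at 1 week and at 30.5, 27.3, 24.3 and 25.4 at 3 weeks, without overlap. In RPKM, however, the groups of E2f3 overlapped, at 3.11, 3.78, 3.95 and 4.28 and at 5.25, 4.74, 3.68 and 4.45. The log2 fold change was 0.42 (SE 0.14), with an adjusted p of 0.0482 by edgeR's quasi-likelihood test. This call was close to the threshold and passed in only 3 of 18 other settings. It was lost when any of the 1 week samples, or replicate 1 or 2 at 3 weeks, was left out (adjusted p 0.0564 to 0.157), and when the 3 preparations found at both times were set as a block (0.162).

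E2f2 (ENSMUSG00000018983, chr4:136172394-136196057, plus strand, 9 exons) was the least abundant gene at 1 week, with 0.452, 0.308, 0.514 and 0.766 RPKM, and was at 0.165, 0.199, 0.312 and 0.376 RPKM at 3 weeks. The groups overlapped in a narrow range. With 15 to 66 reads per sample, the log2 fold change of -0.79 (SE 0.38) had an adjusted p of 0.145 by edgeR's quasi-likelihood test. Without 1 week replicate 4 the value of E2f2 was -0.52, and with the 3 preparations found at both times as a block it was -1.19 (adjusted p 0.0511), so that it missed the threshold in each case.

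The repressors of the pocket protein complexes did not pass the test. E2f4 (ENSMUSG00000014859, chr8:105297663-105305370, plus strand, 13 exons) was the most abundant of the 10 genes in both groups, and its range did not meet that of any other. Levels of E2f4 were 21.2, 21.4, 26.9 and 24.2 RPKM at 1 week and 22.8, 22.9, 16.9 and 19.7 RPKM at 3 weeks. The log2 fold change was -0.03 (SE 0.13), with an adjusted p of 0.878 by edgeR's quasi-likelihood test. E2f5 (ENSMUSG00000027552, chr3:14578641-14606309, plus strand, 11 exons) was at 6.40, 6.18, 4.46 and 3.72 RPKM at 1 week and at 4.67, 5.02, 5.02 and 4.85 RPKM at 3 weeks. For E2f5 it was 1 week replicates 3 and 4, the highest in E2f7 and E2f8, that were lowest, and the 3 week samples lay within the 1 week range. Its log2 fold change of 0.08 (SE 0.21) had an adjusted p of 0.801 by edgeR's quasi-likelihood test. E2f5 had 114 to 227 exon reads per sample. It overlaps 1810022K09Rik on the other strand, which had up to 884, and the use of strand in counting is not given.

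**Figure D2:**
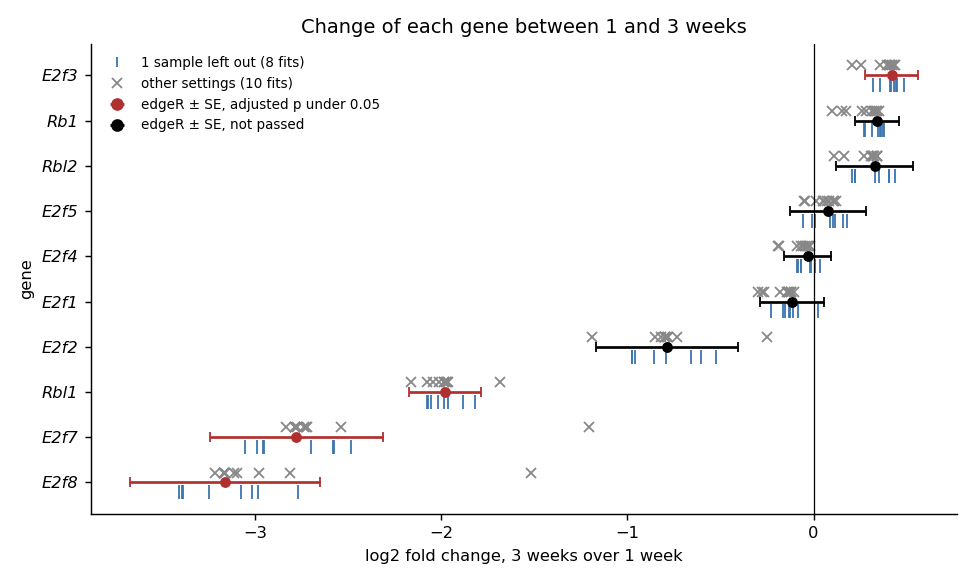
Log2 fold change of each gene, 3 weeks over 1 week (horizontal axis), by edgeR with a standard error derived from its F statistic (circles with bars, red where the adjusted p was under 0.05). Blue ticks are fits with 1 of 8 samples left out and grey crosses the other settings. Rbl1, E2f7 and E2f8 stay below -1 in all of them, while E2f3 lies near 0.42 with values from 0.21 to 0.48.

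The plot of log2 fold changes sets the 3 falls apart from the other 7 genes. Rbl1 kept its adjusted p at or below 0.00478 in all 18 other settings, E2f8 at or below 0.0136 and E2f7 at or below 0.0167. E2f1, E2f4 and E2f5 crossed 0 in some of them.

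In order of mean RPKM at 1 week, E2f4 (23.4) was followed by Rbl1 (8.47), E2f1 (8.44), Rb1 (6.01), E2f5 (5.19), E2f3 (3.78), E2f8 (3.05), E2f7 (1.98), Rbl2 (1.71) and E2f2 (0.510). The ranges of neighbours in this order overlapped, except between E2f4 and Rbl1, between E2f1 and Rb1, and between Rbl2 and E2f2. At 3 weeks the order was E2f4 (20.5), E2f1 (6.93), Rb1 (6.81), E2f5 (4.89), E2f3 (4.53), Rbl2 (1.93), Rbl1 (1.91), E2f8 (0.305), E2f2 (0.263) and E2f7 (0.259). Here neighbours were apart between E2f4 and E2f1, between Rb1 and E2f5, between E2f3 and Rbl2, and between Rbl1 and E2f8. In RPKM, Rbl1 thus went from a level shared with E2f1 to a level shared with Rbl2, and E2f7 and E2f8 to the level of E2f2. From unique reads, however, Rbl1 stayed above Rbl2 at 3 weeks, with mean shares of the pocket protein RNA of 29.6% and 18.1%.

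Among the 7 E2F genes, E2f7 and E2f8 together held 6.9%, 6.1%, 12.6% and 16.5% of the summed RPKM at 1 week and 2.1%, 1.8%, 0.75% and 1.2% at 3 weeks. The groups did not overlap, and the mean went from 10.5% ± 4.94 to 1.45% ± 0.593 (SD, n = 4 each). E2f4 with E2f5 held 62.0% ± 4.54 and 67.4% ± 2.15, and E2f1 to E2f3 held 27.5% ± 1.56 and 31.1% ± 2.32, and both overlapped between the times. The summed RPKM of the 7 genes was 46.4 ± 4.60 at 1 week and 37.7 ± 4.04 at 3 weeks, without overlap. Of all tested genes, 26.2% lay lower in RPKM in this way. The median log2 change over all tested genes was -0.16 on log2(RPKM + 0.1) and 0.03 with TMM. E2f7 and E2f8 fell on both scales, while E2f4 (23.4 to 20.5 RPKM) and E2f1 (8.44 to 6.93 RPKM) had log2 fold changes of -0.03 and -0.11 with TMM.

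**Figure D3:**
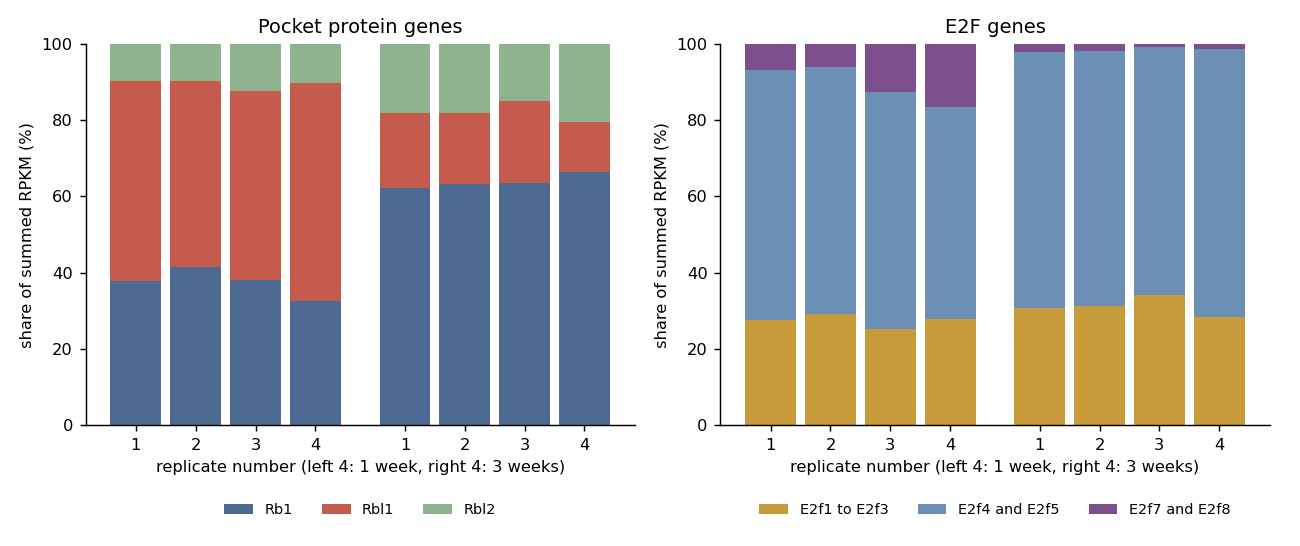
Share of each gene or class in the summed RPKM (vertical axis, percent) of the 3 pocket protein genes (left) and the 7 E2F genes (right), 1 bar per sample, with replicates 1 to 4 at 1 week and then at 3 weeks. The Rbl1 band shrinks from 48.8% or more to 21.6% or less, and the E2f7 and E2f8 band from 6.1% or more to 2.1% or less.

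The plot of shares shows these changes in every sample: Rbl1 is the largest band of the pocket protein bars at 1 week and Rb1 at 3 weeks, while in the E2F bars the activators and E2f4 with E2f5 keep their order.

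The genes that work with the E2Fs were read from lists drawn up by role, with earlier results of these data known. Of the DNA-binding partners, Tfdp1 (DP1), which the classical E2Fs need to bind DNA, was at 42.7 ± 5.07 RPKM and then 20.5 ± 2.85 RPKM, and its log2 fold change was -0.89 with an adjusted p of 0.00315 by edgeR's quasi-likelihood test. Tfdp2 (log2 fold change -0.19) and E2f6, an E2F that acts without pocket proteins (-0.13), did not pass. Of the MuvB core and its partners, 4 of 8 genes were lower and 0 higher (17.0% and 15.7% of all tested genes), with a median of -0.45. The falls were those of the mitotic activators Mybl2 (-3.35) and Foxm1 (-2.81) and of the core subunits Lin9 (-0.97) and Lin54 (-0.65), whereas Lin37 (0.12), Lin52 (0.02), Rbbp4 (-0.24) and the kinase Dyrk1a (-0.13) did not pass.

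Of 8 G1 cyclins and kinases, which inactivate pocket proteins by phosphorylation, 3 were lower and 1 was higher, beside 17.0% and 15.7% of all tested genes, with a median of -0.24. Cyclin D1 (Ccnd1) was at 259 ± 21.1 RPKM and then 86.1 ± 18.5 RPKM, and its log2 fold change was -1.42. Ccne2 (-1.96) and Cdk2 (-0.77) fell too, Ccnd3 rose (0.61, adjusted p 0.0348 by edgeR's quasi-likelihood test, lost without 1 week replicate 1, 2 or 4, without 3 week replicate 1, 2 or 3, and with 3 preparations as a block, where the adjusted p was 0.113), and Ccnd2 (-0.04), Cdk4 (-0.05), Cdk6 (-0.17) and Ccne1 (-0.30) did not pass. Of 7 CDK inhibitors, which keep pocket proteins active, 3 were higher and 1 was lower, beside the same 15.7% and 17.0%. Cdkn2a, the locus of p16 and p19Arf, which share exons, rose from 20.5 ± 12.5 to 183 ± 39.6 RPKM (log2 fold change 3.33), Cdkn2b from 49.4 ± 11.0 to 143 ± 27.3 RPKM (1.70) and Cdkn1a (p21) from 137 ± 16.2 to 223 ± 18.7 RPKM (0.87). Cdkn2c, in the same family as Cdkn2b, fell (-2.70), and Cdkn1b (-0.27), Cdkn1c (-0.06) and Cdkn2d (-0.17) did not pass. Of 9 chromatin corepressors that bind pocket proteins, the histone methyltransferase Suv39h1 was lower (-1.56) and Arid4b higher (1.08, lost without 1 week replicate 1, 2 or 4 and without 3 week replicate 1). Hdac1 (0.37), Hdac2 (-0.06), Hdac3 (-0.05), Kdm5a (0.28), Arid4a (0.58), Sin3a (-0.12) and Sin3b (0.45) did not pass.

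Nearly all target genes were lower, in lists that were also chosen with earlier results of these data known. Of 24 G1/S genes known as E2F targets, 23 were lower and 0 higher (17.0% and 15.7% of all tested genes), with a median log2 fold change of -2.76 beside 0.03 over all tested genes. The 4 with the largest changes were the checkpoint kinase Chek1 (-3.77), the replication factors Mcm10 (-3.72) and Mcm6 (-3.37) and thymidine kinase Tk1 (-3.32), and Cdc25a alone did not pass (-0.74, adjusted p 0.0734 by edgeR's quasi-likelihood test). Of 12 G2/M genes known as MuvB targets, 12 were lower, with a median of -3.34, led by Ccna2 (-3.90), Kif11 (-3.67), Ccnb1 (-3.62) and Plk1 (-3.52). With 1 sample left out, 22 to 23 of the G1/S genes and 11 to 12 of the G2/M genes passed. The values of E2f7 (-2.78), E2f8 (-3.16) and Rbl1 (-1.98) lay within the range of the G1/S list, -3.77 to -0.74. E2f2 (-0.79, SE 0.38), which did not pass, lay next to the edge of that range, which Cdc25a sets. Without 1 week replicate 4, E2f2 was at -0.52. The values of E2f1 (-0.11), E2f3 (0.42), E2f4 (-0.03), E2f5 (0.08), Rb1 (0.34) and Rbl2 (0.33) lay outside it.

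**Figure D4:**
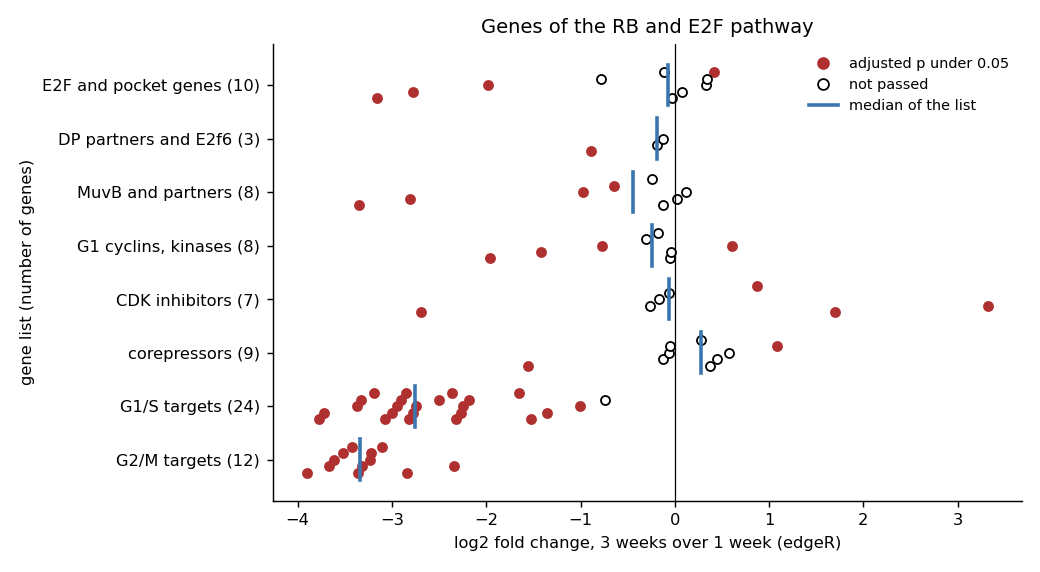
Log2 fold change by edgeR, 3 weeks over 1 week (horizontal axis), of each gene (circle, red where the adjusted p was under 0.05) in 8 lists of the pathway, with the median of each list as a blue bar. The G1/S and G2/M target lists lie below 0 as a whole (medians -2.76 and -3.34), while the E2F and pocket protein genes spread from -3.16 to 0.42.

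The plot of the pathway lists shows the contrast between the regulators, whose list medians lay between -0.45 and 0.28, and their target genes. The lists were chosen with earlier results known, and this contrast was not tested. The E2F and pocket protein list holds values of both kinds, with Rbl1, E2f7 and E2f8 apart from the other 7 genes.

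Likeness of profile was measured as the root mean square difference between gene-centred log2 CPM over the 8 samples, where a smaller value is a closer match. For E2f7 the closest of all tested genes were Foxm1 (0.194), Ticrr (0.224) and Dna2 (0.229). For E2f8 they were Cit (0.233), Hmmr (0.255) and Kif14 (0.260), and for Rbl1 Dsn1 and Wdr90 (0.135 each) and Rfc5 (0.151). E2f3 was closest to Ssbp3 (0.0716), P2rx7 and Gm20388, and E2f2 to Ankrd22 (0.183), Wdr5b and Lgalsl. E2f1 was closest to Ap2m1 (0.0549), Sae1 and Pithd1, E2f4 to Xpnpep1 (0.0539), Ncln and Ccdc71, and E2f5 to Coq8b (0.0872), Hs2st1 and F8a. Rb1 was closest to Sun1 (0.0518), Map3k7 and Atp11b, and Rbl2 to Slc9a3r1 (0.0678), Itpkc and Rxra. The measure is smaller for genes that vary little, so it is not compared between these genes, and none of the 10 was among the 3 closest of another.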

How the data were processed

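RNA of 8 KC samples was sequenced by the authors from poly(A) libraries as single reads of 59 bases and mapped to the mouse genome (GRCm38), using CLC Genomics Workbench 12.0 with defaults. The annotation release and the use of strand are not given in the sources used here. The deposited tables, 1 per sample, hold raw counts of reads per gene (total and unique reads on exons, reads on the whole gene and on introns), RPKM values and TPM values made by the authors from the exon reads.

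The test on total exon reads was that of edgeR 4.0.16 (TMM scaling, filterByExpr, quasi-likelihood F test, Benjamini-Hochberg over all tested genes, threshold 0.05) in R 4.3.3, without a block. The study's own statistics used unpaired t-tests, but its text speaks of the same batches at both times. The edgeR test and the permutation test treat all samples as independent. The SE of a log2 fold change was derived as its absolute value divided by the square root of the F statistic. Single RPKM means were compared by an exact two-sided permutation test over 70 arrangements, with a smallest p of 0.0286. Shares of summed RPKM and profile likeness (log2 CPM, prior count 2) have no test. Alternatives used DESeq2 1.42.0, upper-quartile scaling, no filter, at least 10 reads in every sample, unique or all gene reads, limma 3.58.1 on log2(RPKM + 0.1) or log2(RPKM + 1), a block for the replicate number or for 3 preparation numbers shared by both times, and each sample left out. TPM gave the same shares as RPKM. Samples were grouped by the time in their labels, and p-values measure the spread between these samples, which came from 4 independent experiments per the labels.

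The 10 genes and all gene lists were chosen with earlier results of these data known. The text names all 10 genes, every gene of a list of at most 9, the 4 largest changes of longer lists, and the 3 closest profiles of each gene. The markers were Krt5, Krt14, Krt15, Trp63, Itga6, Itgb4, Col17a1, Cdh1 and Sfn for keratinocytes, Col1a1, Col1a2, Col3a1, Pdgfra, Dcn and Lum for fibroblasts, Dct, Pmel, Tyrp1, Mlana and Sox10 for melanocytes, Ptprc, Cd74, Cd207, Cd3e and Csf1r for immune cells, and Pecam1, Cdh5 and Kdr for endothelium. Cdc25a and the genes that overlap Rb1, Rbl2 and E2f5 fall outside this rule and were named after their values were seen.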

Additional observations from a re-analysis of the deposited data

How the results depend on the processing

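E2f7, E2f8 and Rbl1 were lower with an adjusted p under 0.05 in all 18 other settings. Their log2 fold changes ranged from -3.06 to -1.21, from -3.41 to -1.52 and from -2.16 to -1.68, and with each sample left out from -3.06 to -2.49, from -3.41 to -2.77 and from -2.08 to -1.82. For E2f3 the log2 fold change was 0.41 with upper-quartile scaling, with at least 10 reads per sample and with all gene reads, 0.36 without a filter, 0.39 from unique reads, 0.25 and 0.21 by limma on log2(RPKM + 0.1) and log2(RPKM + 1), and 0.44 with 3 preparations as block, all short of the threshold, and 0.32 to 0.48 with each sample left out. It passed with DESeq2 (adjusted p 0.0155) and without 3 week replicate 3 or 4. The number of the 10 genes called higher was therefore 2 with DESeq2, where Rb1 passed too (0.35, adjusted p 0.0206), 0 in the other settings of E2f3 just named, and 0 to 1 with each sample left out. The direction of E2f5 turned by limma (-0.05 and -0.0469), and with each sample left out E2f1 ranged from -0.2312 to 0.0244, E2f4 from -0.0915 to 0.0328 and E2f5 from -0.055 to 0.1801, none of them passing. E2f2 ranged from -0.98 to -0.52 with each sample left out and Rbl2 from 0.21 to 0.44, and on log2(RPKM + 1) they were at -0.25 and 0.11, without passing in any setting. The difference in share of Rbl2 was 7.43 percentage points from RPKM and 9.90 from unique reads.

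Over all tested genes, 2146 were lower and 1981 higher with edgeR, and 3089 lower and 1313 higher by limma on log2(RPKM + 0.1). Higher genes numbered 1281 by limma on log2(RPKM + 1) and 1316 with 3 preparations as block. With each sample left out, 1631 to 2667 genes were lower and 1371 to 2284 higher, with the most lower genes when 3 week replicate 3 was left out. Of the corepressors, 2 were higher with DESeq2, 0 in both limma fits and with the replicate block, and 0 to 2 with each sample left out. Of the G1 cyclins and kinases, 0 were higher without a filter, in both limma fits and with 3 preparations as block, and 0 to 1 with each sample left out. CDK inhibitors called lower numbered 1 to 2 with each sample left out, with 2 without 3 week replicate 4. Of the G1/S and G2/M targets, 19 and 11 were lower with at least 10 reads per sample, since that filter left out Cdc6, Chek1, Gins1, Mcm10 and Cenpe. Cdc25a passed with DESeq2 and in both limma fits.

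The replicate numbers went with the same preparation number at both times for replicates 1 and 4, but not for replicates 2 and 3. Deviations of same-numbered samples correlated at -0.23 to 0.25 (mean -0.07, 4 pairs), and 1 sample correlated best with its own number. With the replicate number as block, 1558 genes were lower and 1309 higher, E2f3 had a log2 fold change of 0.42 with an adjusted p of 0.152, and 0 of the 10 genes were called higher. Cdk2 (adjusted p 0.0523), Tyms (0.0655) and Cenpe (0.0705) were lost too, which left 2 G1 cyclins and kinases, 22 G1/S and 11 G2/M targets lower. For the 3 preparations, for which the study's text speaks of the same batches at both times, the mean correlation was 0.07. It was -0.23 for preparation 46, 0.20 for 49 and 0.25 for 90. For preparations 49 and 90 it was the highest that either sample had with any sample of the other time. The highest of all pairs, 0.416, joined the different preparations 46 and 57. The correlations were thus low and of mixed sign where the preparation number was shared, and cannot decide which samples were paired. E2f2, E2f7 and E2f8 had at most 67 reads in any 3 week sample, which limits their precision at this depth.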
